A study of Homo sapiens with 32 samples.

Results

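The subject was the transcripts of 10 genes of the exon junction complex and of nonsense-mediated decay, out of 19881 protein-coding genes with a canonical transcript: EIF4A3, RBM8A, MAGOH, CASC3, RNPS1, ACIN1, PNN, SAP18, UPF1 and UPF3B. All 10 were found by symbol in the annotation. Each gene was described by its iCLIP tags on the strand of the gene within its hg19 body, divided into exons and introns of the canonical transcript. iCLIP marks, base by base, where a protein was crosslinked to RNA by ultraviolet light in living cells, and a tag is 1 cDNA left after removal of PCR duplicates.

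FLAG-tagged versions of 3 mRNA export factors were compared in stable lines of HEK293T FlpIn, a line derived from human embryonic kidney that carries a single site for a tetracycline-inducible transgene. Alyref and Chtop, subunits of the TREX complex, were induced with 10 ng/mL tetracycline, and Nxf1, the export receptor, with 5 ng/mL, in each case for 48 h. Control cells expressed an empty FLAG construct, and the labels do not give a dose for them. The 4 groups had 3 libraries each, from 32 sequencing lane runs, and nothing in the labels says whether the libraries came from separate cultures, so p-values measure the spread between these libraries. No RNA level was measured beside the tags, so that more of a transcript and more contact per transcript cannot be told apart.

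The exon junction complex is left on spliced mRNA a short distance upstream of exon-exon junctions. EIF4A3, an RNA-clamping helicase, forms its core with the RBM8A (Y14) and MAGOH pair, and CASC3 joins it. RNPS1 with ACIN1 and SAP18, or with PNN and SAP18, forms peripheral assemblies that act in splicing. When translation stops upstream of a junction that still carries the complex, UPF3B and the helicase UPF1 link it to decay of the mRNA, so that transcripts with a premature stop are degraded.

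Depth set the limits. Alyref libraries held 81307 to 631704 tags, Chtop libraries 47052 to 538844, Nxf1 libraries 8134 to 179346 and Control libraries 7017 to 46628, with replicate 1 the shallowest in every group. By the sample titles, replicate 2 of every group was run on other HiSeq lanes than replicates 1 and 3, so that a replicate number marks the same lanes in all 4 groups. Levels are given as CPM, the tags of a gene or region per 1000000 tags of the library. Where no tag was found, the level may still be as high as 9.78 CPM in the Nxf1 libraries together and 33.1 in the Control libraries together, the size of 3 counts. Intervals and such limits cover counting error only. The 10 genes held 1350 Alyref, 1017 Chtop, 188 Nxf1 and 53 Control tags, and their summed level was 1058 ± 117 CPM in Alyref, 953 ± 97.1 in Chtop, 760 ± 296 in Nxf1 and 761 ± 507 in Control (SD, n = 3 each).

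ACIN1, which encodes the splicing-associated scaffold Acinus, carried the most factor tags. Its 943 tags over the 9 factor libraries placed it 191st of 19881 protein-coding genes. PNN followed with 416, RNPS1 with 370, CASC3 with 325 and UPF1 with 268. UPF3B had 77, EIF4A3 61, RBM8A 37, MAGOH 32 and SAP18 26. Antisense factor tags over the same bodies numbered 0 to 11 per gene.

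ACIN1 intron 9 held more factor tags than any other exon or intron of the 10 genes, 396 in all, and 239 of them lay in an alternative exon inside it, whose splice sites are therefore shown. ACIN1 (ENSG00000100813.15) lies at chr14:23527773-23564823 on the minus strand of hg19, and intron 9 of its 19-exon canonical transcript runs from 23538684 down to 23535218, over 3467 nt. An annotated isoform classed as a nonsense-mediated decay target includes an exon of 1358 nt in it, chr14:23536523-23537880. The 4 windows span the splice sites of that exon and of its neighbours, 5′ to 3′ on the RNA strand in DNA letters, with the intronic GT or AG in capitals. They lie at chr14:23538665-23538694, chr14:23537871-23537900, chr14:23536503-23536532 and chr14:23535208-23535237.
ACIN1 exon 9, 5′ splice site: gaagaaagagGTaaacatccaagccaccta
ACIN1 decay exon, 3′ splice site: cccgtaaaactttgtccaAGtacctcatgt
ACIN1 decay exon, 5′ splice site: aagatcccagGTgtgagatggtacctggaa
ACIN1 exon 10, 3′ splice site: cctttttcttcttcatacAGagctcgctgc

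No base of a member reached 5 factor tags. The 9 bases with 4 factor tags lay in RNPS1, ACIN1 and PNN, and 6 of them are shown with 10 nt on either side, the crosslinked base in capitals. These bases were chosen after their values were seen. The first lies in the ACIN1 decay exon (chr14:23537491-23537511), and the next ones lie in intron 9 upstream of it (chr14:23538242-23538262) and downstream of it (chr14:23535853-23535873), all on the minus strand of hg19. A further pair lies in the 3′ UTR of RNPS1 (chr16:2303261-2303281 and chr16:2303903-2303923, minus strand), and the last in the coding part of PNN exon 8 (chr14:39648552-39648572, plus strand).
ACIN1 decay exon: gggttgccttGtttgctacag
ACIN1 intron 9, upstream: ctgagaaattTttgttcctcc
ACIN1 intron 9, downstream: tgagttctttTtgctagcact
RNPS1 exon 8, end: gcttttatttTttttcttttt
RNPS1 exon 8, start: ccagctcagtTttgtcacttt
PNN exon 8: gccaaaataaTtaaatatata
The tagged base was uracil in 5 of these 6. Over every tag of the 10 genes, uracil made up 55.1% in Alyref (95% exact interval 52.4 to 57.8), 55.6% in Chtop (52.4 to 58.6), 45.2% in Nxf1 (38.0 to 52.6) and 50.9% in Control (36.8 to 64.9).

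In the core of the complex, CASC3 (chr17:38296571-38328424, plus strand), which steadies the complex on RNA, was the most tagged transcript. It had 10, 89 and 71 tags in Alyref replicates 1, 2 and 3, 5, 73 and 51 in Chtop, 1, 14 and 11 in Nxf1, and 1, 4 and 5 in Control. Scaled to depth these were 127 ± 12.2 CPM in Alyref, 120 ± 14.7 in Chtop, 101 ± 34.1 in Nxf1 and 121 ± 30.9 in Control (SD, n = 3 each), and the groups overlapped. Over the 3 libraries together, the Alyref level was 1.17 times that of Control (95% exact counting interval 0.621 to 2.48). The most densely tagged exon of CASC3 was exon 1, with 13 Alyref, 7 Chtop, 0 Nxf1 and 0 Control tags on 243 nt. Among its introns with at least 20 factor tags, the densest was intron 7, with 12, 6, 9 and 0.

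EIF4A3 (chr17:78108168-78120950, minus strand), the helicase that clamps the complex onto RNA, had few tags. There were 4, 22 and 11 in Alyref, 0, 6 and 6 in Chtop, 0, 6 and 6 in Nxf1, and 0, 2 and 2 in Control. Chtop replicates 2 and 3 stood below the lowest Alyref library at 18.2 CPM, but the 0 tags of Chtop replicate 1 allow up to 63.8 CPM, so that overlap of these groups cannot be judged. The pooled Chtop level was 0.268 times that of Control, with a counting interval of 0.0811 to 1.14. EIF4A3 had too few tags for the main test, and with a filter of 20 tags over all libraries, chosen after seeing the data, it was higher in Alyref than in Chtop by 1.20 on the log2 scale with an adjusted p of 0.215 (edgeR).

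RBM8A (chr1:145507415-145513536, plus strand) and MAGOH (chr1:53692572-53704190, minus strand), the pair that locks EIF4A3 on RNA, were tagged less again. RBM8A had 3, 9 and 5 tags in Alyref, 0, 10 and 3 in Chtop, 0, 5 and 2 in Nxf1, and 1 Control tag, and exon 6, its last, held 20 of the 37 factor tags. Most of these tags also lay in an overlapping protein-coding gene with no symbol, and 0 to 2 tags per library were left when tags in more than 1 gene were set aside, so they cannot be assigned to RBM8A alone. Of the 30-base words of its exons 53.0% occur elsewhere in the genome, and how many tags were lost by keeping only uniquely mapped reads was not tested. MAGOH had 0, 13 and 8 tags in Alyref, 1, 5 and 2 in Chtop, 0, 2 and 1 in Nxf1, and 0 in Control. With 0 Control tags, and pooled factor levels that all lay under the Control limit of 33.1 CPM (7.88 in Chtop, 9.78 in Nxf1), no fold could be given.

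In the peripheral assemblies, RNPS1, ACIN1 and PNN were the most tagged of the 10 genes. RNPS1 (chr16:2303117-2318398, minus strand), an SR-related activator of splicing, had 10, 75 and 80 tags in Alyref, 4, 93 and 62 in Chtop, 1, 30 and 15 in Nxf1, and 0, 3 and 2 in Control. In CPM these were 125 ± 7.11, 134 ± 44.7, 153 ± 87.9 and 39.5 ± 34.6 (SD, n = 3 each). The factor libraries, at 83.6 or more, lay above Control replicates 2 and 3, the higher of them at 64.3, while the 0 tags of Control replicate 1 allow up to 428 CPM.

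ACIN1 had 32, 241 and 165 tags in Alyref, 18, 244 and 195 in Chtop, 3, 25 and 20 in Nxf1, and 6, 14 and 1 in Control. In CPM these were 350 ± 66.1, 430 ± 40.9, 230 ± 130 and 394 ± 422 (SD, n = 3 each). Each Chtop library, at 383 or more, stood above each Nxf1 library, at 369 or less, by a narrow margin. The highest Nxf1 library was replicate 1, with 3 tags (95% exact interval 76.1 to 1077 CPM). Overlap of Nxf1 with Chtop therefore cannot be judged. The Control libraries spread from below every factor library to above all of them, at 855.

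PNN (ENSG00000100941.9, chr14:39644387-39652424, plus strand), the pinin splicing factor, had 21, 139 and 126 tags in Alyref, 7, 68 and 41 in Chtop, 1, 6 and 7 in Nxf1, and 2, 8 and 0 in Control. In CPM these were 229 ± 25.9 in Alyref, 123 ± 26.8 in Chtop, 70.8 ± 45.5 in Nxf1 and 152 ± 143 in Control (SD, n = 3 each). The lowest Alyref library, at 209, lay above the highest Chtop library, at 149, and above the highest Nxf1 library, at 123. That Nxf1 library was replicate 1, with 1 tag (95% exact interval 3.11 to 685 CPM). Overlap of Nxf1 with Alyref therefore cannot be judged. Control replicate 1, at 285 CPM on 2 tags, lay above every Alyref library, the highest of which stood at 258.

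SAP18 (chr13:21714258-21723236, plus strand), the small subunit shared by both peripheral assemblies, had 0, 7 and 8 tags in Alyref, 0, 5 and 2 in Chtop, 0, 3 and 1 in Nxf1, and 0 in Control. Its pooled levels in Alyref, at 11.4 CPM, in Chtop, at 6.89, and in Nxf1 were all under the Control limit, and no fold could be given.

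Of the decay factors, UPF1 (chr19:18942768-18979039, plus strand), the helicase of the pathway, had 10, 86 and 61 tags in Alyref, 4, 47 and 38 in Chtop, 1, 12 and 9 in Nxf1, and 0, 1 and 0 in Control. The lowest factor library stood at 50.2 CPM and Control replicate 2 at 21.4, and the other Control libraries had 0 tags, which in replicate 1 allows up to 428 CPM. With 1 Control tag, the pooled ratio to Control was 10.8 for Alyref (95% exact counting interval 1.91 to 430), 7.94 for Chtop (1.39 to 317) and 6.50 for Nxf1 (1.05 to 268). UPF3B (chrX:118967985-118986961, minus strand), which bridges the junction complex and UPF1, had 3, 18 and 23 tags in Alyref, 1, 11 and 15 in Chtop, 1, 1 and 4 in Nxf1, and 1 in Control, where its Alyref ratio of 3.03 had an interval of 0.516 to 122.

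**Figure D1:**
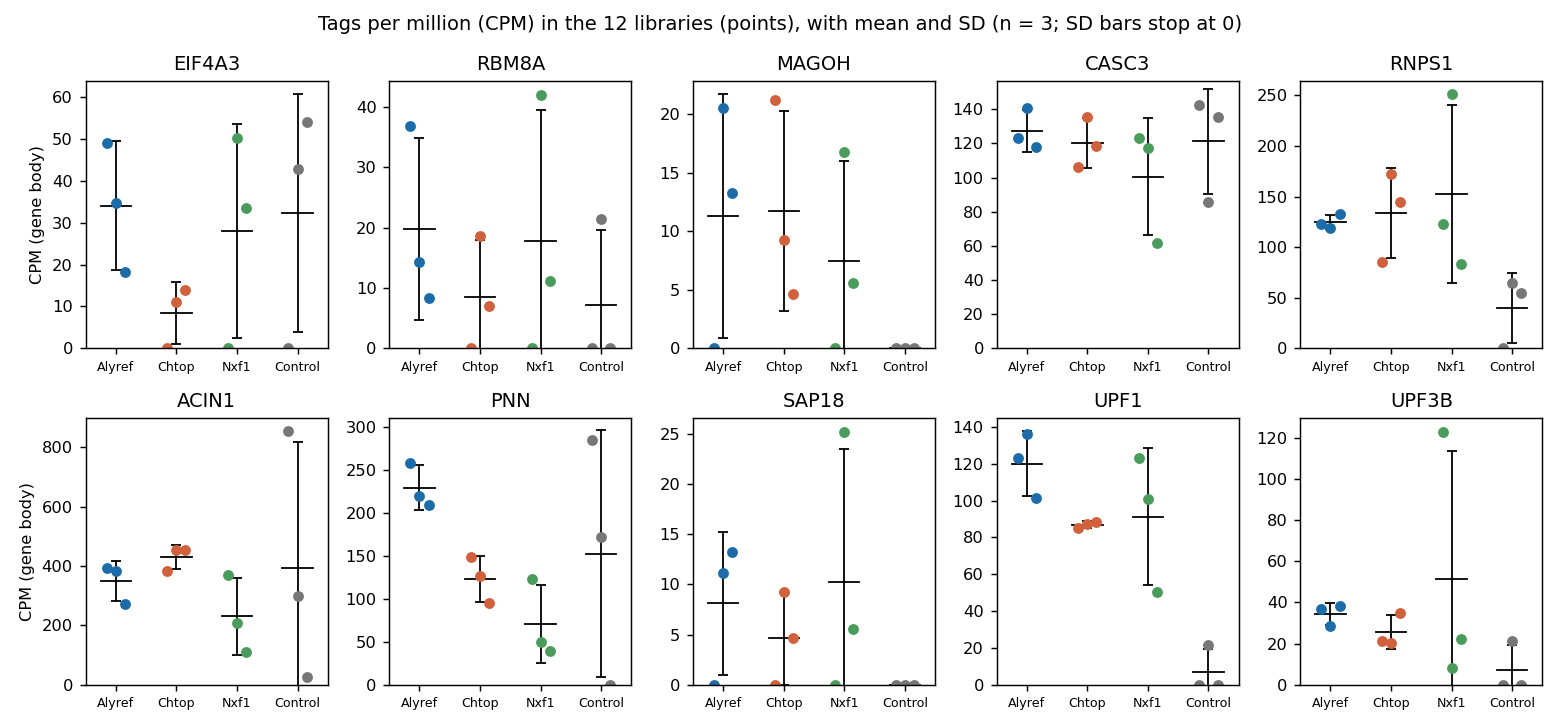
CPM (y axis, linear, a scale per gene) in the body of each of the 10 genes, for the 3 libraries of Alyref, Chtop, Nxf1 and Control. Points are libraries, lines are means and bars are SD, cut at 0. The 3 Alyref libraries of PNN lie above all Chtop and Nxf1 libraries and below Control replicate 1. The PNN point of Nxf1 replicate 1 rests on 1 tag. Points at 0 are libraries with no tag in the gene.

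The first comparison asked whether any of these transcripts was tagged more with 1 factor than with another or than in Control. Tags per gene were tested over 3864 genes with the edgeR quasi-likelihood test and Benjamini-Hochberg adjustment, and 5 of the 10 genes passed its filter on low counts: CASC3, RNPS1, ACIN1, PNN and UPF1. PNN was higher in Alyref than in Nxf1, by 1.96 on the log2 scale (SE 0.45, adjusted p = 0.0126). ACIN1 was higher in Chtop than in Nxf1, by 1.26 (SE 0.42, adjusted p = 0.0307). Read against all genes tested, 4.22% were called between Alyref and Nxf1 and 23.8% between Chtop and Nxf1.

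Neither call held under every alternative. The PNN call was lost without Alyref replicate 2 (log2 difference 2.07, adjusted p = 0.0660), Alyref replicate 3 (2.04, 0.0602), Nxf1 replicate 2 (1.94, 0.0982) or Nxf1 replicate 3 (1.89, 0.173), and under the DESeq2 Wald test (1.93, 0.0755). The ACIN1 call was lost without Alyref replicate 2 (1.24, 0.0577), Alyref replicate 3 (1.24, 0.0526), Chtop replicate 3 (1.25, 0.0779), Nxf1 replicate 2 (1.48, 0.0688) or Nxf1 replicate 3 (1.03, 0.212), and also with total tags as the only scaling (1.34, 0.0503) and under DESeq2 (1.18, 0.0777). Both calls held with the replicate number as a block, and with a term for the lane set, added after seeing the data (PNN 1.98, adjusted p = 0.0192, and ACIN1 1.27, 0.0407, edgeR). Within the lanes of replicates 1 and 3 the differences were 1.96 (adjusted p = 0.723) and 1.34 (0.296), and the lanes of replicate 2 hold 1 library per group, which allows no test.

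PNN differed between Alyref and Chtop by 0.88 (SE 0.31) with an adjusted p of 0.0528, just above the threshold of 0.05, and by 1.09 between Chtop and Nxf1 (adjusted p = 0.0953). The first difference was called without Chtop replicate 1 (0.97, adjusted p = 0.0376) or Control replicate 2 (0.91, 0.0437), when tags shared with another gene were left out (0.88, 0.0419) and when tagged positions were counted in place of tags (0.89, 0.0451). No member was called in this comparison by edgeR or DESeq2, with 1 member at an unadjusted p under 0.05, while 14.1% of all genes were.

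Against Control, edgeR and DESeq2 called 0 of the 5 tested members with any factor. Of all genes, edgeR called 0.0259% with Alyref, 13.5% with Chtop and 0% with Nxf1. With the replicate block, 82 genes in place of 1 were called with Alyref and 2 in place of 0 with Nxf1. At an unadjusted p under 0.05 the members numbered 1, 2 and 2. For Nxf1, 292 of the 3864 genes had an unadjusted p under 0.05, and DESeq2 called 1. UPF1 came closest, by 3.26 with Alyref (SE 0.96, adjusted p = 0.110), 2.90 with Chtop (SE 1.01, adjusted p = 0.0527) and 2.85 with Nxf1 (SE 1.08, adjusted p = 0.521). Its Chtop difference was called without Alyref replicate 1 (adjusted p = 0.0494) or Nxf1 replicate 1 (0.0468). RNPS1 was higher by 1.41 in Chtop (SE 0.64, adjusted p = 0.122) and by 1.64 in Nxf1 (SE 0.67, adjusted p = 0.602). PNN was higher by 0.92 in Alyref (SE 0.52, adjusted p = 0.376, edgeR). The adjusted p of the members ran up to 0.962, and the remaining 5 genes had too few tags to be tested at this depth. With the filter of 20 tags all 10 genes were tested, and the calls were again PNN in Alyref against Nxf1 and ACIN1 in Chtop against Nxf1.

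The next comparison set exons against introns. Of exonic and intronic tags in the 10 genes together, 62.3% ± 1.80 were exonic in Alyref, 60.1% ± 3.48 in Chtop, 56.3% ± 5.38 in Nxf1 and 43.9% ± 9.22 in Control (SD, n = 3 each). In all other protein-coding genes the shares were 53.1% ± 4.64, 65.7% ± 8.07, 42.9% ± 17.8 and 26.8% ± 14.9. Chtop therefore stood highest of the groups in other genes and close to Alyref in the 10. Without ACIN1 the shares became 70.0% ± 1.48, 77.8% ± 5.90, 61.1% ± 1.28 and 57.4% ± 8.49, with Chtop highest again. ACIN1 alone was 47.0% exonic in Alyref (204 of 434 tags), 38.2% in Chtop (174 of 455), 31.2% in Nxf1 (15 of 48) and 35.0% in Control (7 of 20). At the other end, PNN was 98.2% exonic in Alyref (278 of 283), 96.6% in Chtop (112 of 116), 100% in Nxf1 (14 of 14) and 70.0% in Control (7 of 10).

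**Figure D2:**
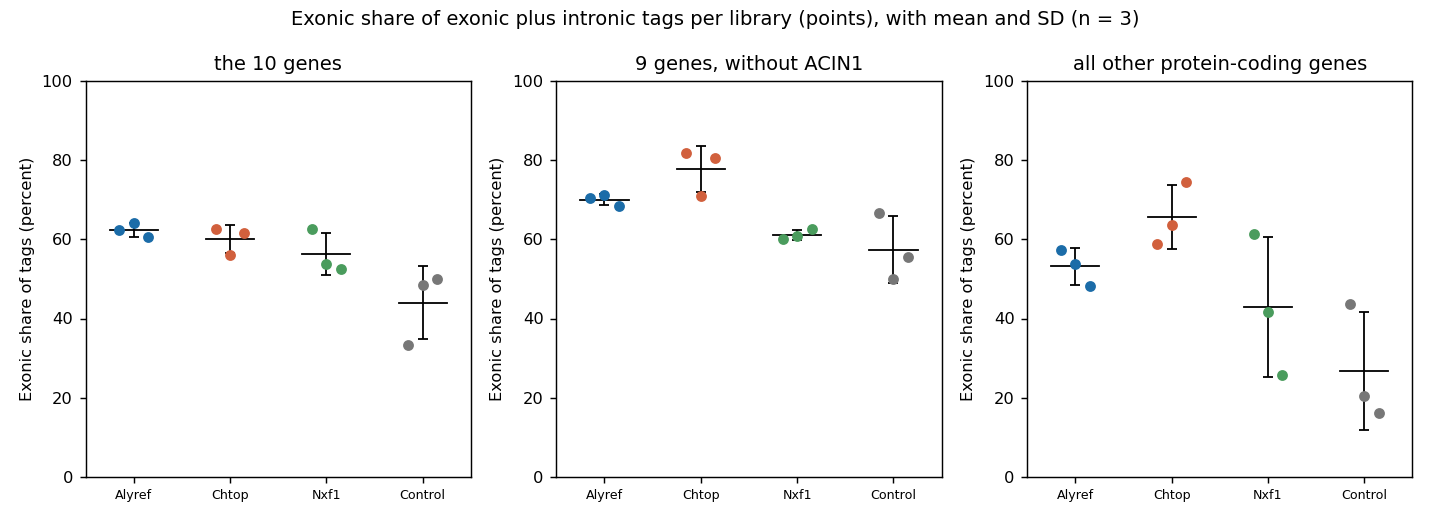
Exonic tags as a percent of exonic plus intronic tags (y axis) per library (points), with mean and SD (n = 3), for the 10 genes, for 9 of them without ACIN1 and for all other protein-coding genes. Alyref and Chtop stand at 62.3% and 60.1% in the 10 genes, and at 70.0% and 77.8% without ACIN1.

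The exon to intron ratio was tested within libraries over 2630 genes (edgeR quasi-likelihood test), of which ACIN1, PNN and CASC3 are members. CASC3 had 59 exonic and 13 intronic tags in Chtop replicate 2, 45 and 6 in replicate 3 and 5 and 0 in replicate 1. In Nxf1 it had 4 and 10 in replicate 2, 8 and 3 in replicate 3 and 0 and 1 in replicate 1. Each Chtop library was more exonic than each Nxf1 library, and the ratio was higher in Chtop by 2.81 on the log2 scale (SE 1.00, adjusted p = 0.0156). That comparison called 47.4% of all genes and had a median difference of 2.23 over them, so most of the CASC3 difference was shared with genes at large. Scaled by TMM over the 24 columns, which centres the ratios on the bulk of genes, the CASC3 difference was 0.60 (adjusted p = 0.787). Without a filter it was 2.80 (adjusted p = 0.0677). Without replicate 2 or 3 of any factor, and so within the lanes of replicates 1 and 3, CASC3 had too few tags for this test.

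In the other 5 contrasts of this ratio, 0 of the 3 members were called by edgeR. The share of all genes called was 3.76% for Alyref against Control, 41.3% for Chtop against Control, 0% for Nxf1 against Control, 2.66% for Alyref against Chtop and 6.84% for Alyref against Nxf1. Members at an unadjusted p under 0.05 numbered 1, 1, 1, 1 and 0, and those called by DESeq2 1, 1, 0, 0 and 0, the 1 being PNN. Where edgeR called 0% of genes, 193 had an unadjusted p under 0.05 and DESeq2 called 0. PNN rested on Control replicate 2, which held 5 exonic and 3 intronic tags, the 3 being all the intronic Control tags of the gene. Its log2 difference from Control was 4.28 for Alyref and 3.26 for Chtop (adjusted p = 0.0910 and 0.0816), and -0.91 and -1.93 without that library. Within the lanes of replicates 1 and 3, where Control had no intronic tag of PNN, it was -0.76 and -2.37 (adjusted p = 0.949 and 0.801). The ACIN1 ratio was not called in any contrast, with adjusted p-values from 0.481 to 1.

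Where the ACIN1 intron tags lay was uneven. Intron 9 held 396 factor tags, and ranked 49th by tags per kb among the 9680 introns of protein-coding genes with at least 20 factor tags, and 75th by tags. It had 10, 79 and 64 tags in Alyref, 10, 121 and 99 in Chtop, 1, 7 and 5 in Nxf1, and 3, 5 and 1 in Control. As a share of the gene's tags this was 31.2%, 32.8% and 38.8% in Alyref, and 55.6%, 49.6% and 50.8% in Chtop, which did not overlap, and 33.3%, 28.0% and 25.0% in Nxf1. In Control it was 50% of 6 tags, 35.7% of 14 and 100% of 1, which overlapped the factors. The next introns were far less tagged, with 66 factor tags on the 8533 nt of intron 8 and 52 on the 1477 nt of intron 10, and introns 7, 11 and 17 held 0.

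Most Chtop tags of intron 9 lay in the decay exon, 161 in all. By library it held 4, 41 and 31 tags in Alyref, 5, 86 and 70 in Chtop, 0, 1 and 1 in Nxf1, and 1, 1 and 0 in Control. In Chtop these were 27.8%, 35.2% and 35.9% of the gene's tags, above the 12.5%, 17.0% and 18.8% in Alyref and the 0%, 4.00% and 5.00% in Nxf1, with Control at 16.7%, 7.14% and 0%. Its density was 117 CPM per kb in Chtop, 42.5 in Alyref, 4.80 in Nxf1 and 16.3 in Control. The stretch just upstream of it stood at 31.6 CPM per kb in Alyref and 38.2 in Chtop, and the stretch just downstream at 24.2 and 30.1, with Control at 61.1 and 40.5 on 2 and 3 tags. The first 443 nt of the intron, exonic in annotated retained-intron isoforms, had 37.7 in Alyref, 48.9 in Chtop, 51.5 in Nxf1 and 0 in Control. The last 488 nt, exonic in another such isoform, had 21.8, 16.1, 6.68 and, on 2 tags, 45.2. The exon was picked out after its values were seen and carries no test of its own. Of the 30-base words of intron 9, 0.0291% occur elsewhere in the genome.

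**Figure D3:**
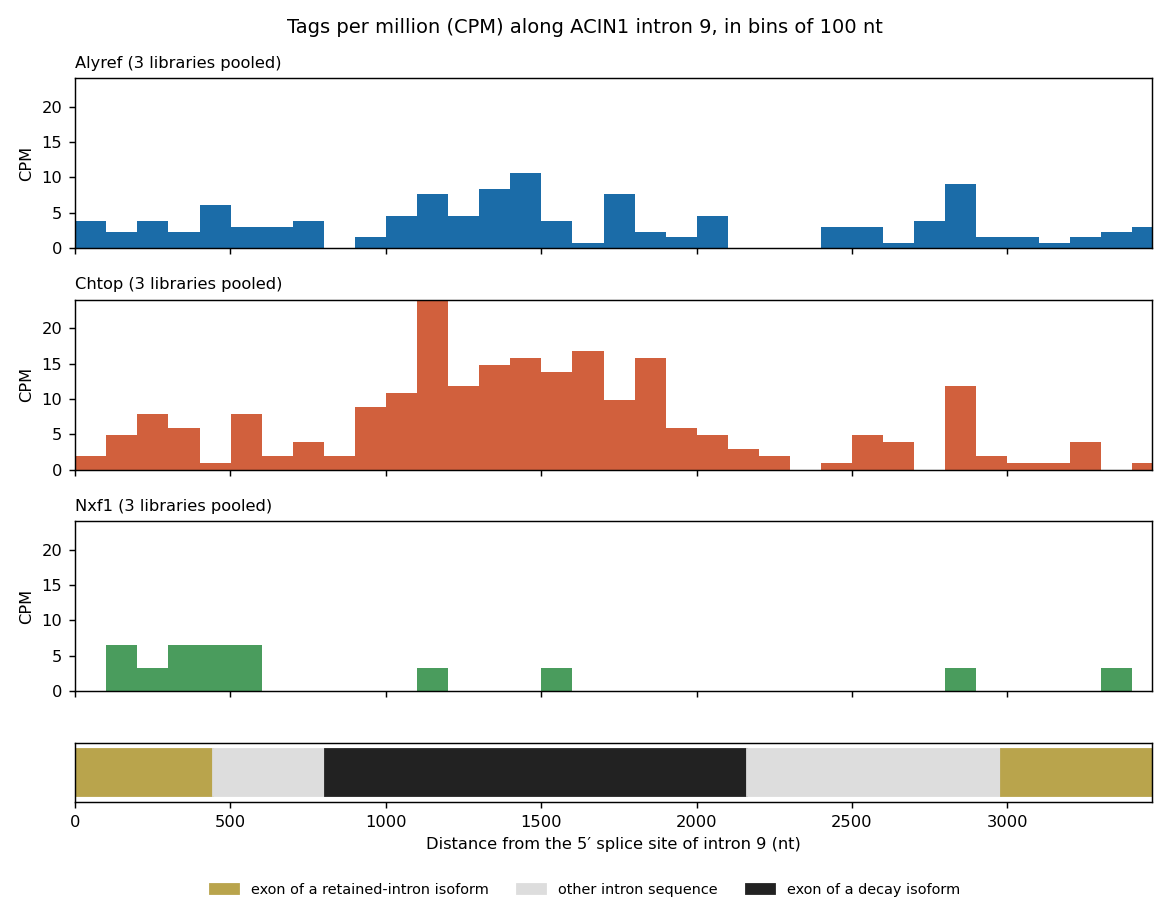
CPM in bins of 100 nt along ACIN1 intron 9 (x axis, distance from its 5′ splice site in nt), with the 3 libraries of Alyref, Chtop and Nxf1 pooled by group and the annotation below. Chtop tags pile up over the exon of the decay isoform (black, 161 tags), where Alyref had 76 and Nxf1 2.

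Among single exons and introns, 920 passed the filter on low counts, 2 of them of these genes: ACIN1 intron 9 and PNN exon 9. Intron 9 was higher in Chtop than in Nxf1 by 2.19 on the log2 scale (SE 0.75, adjusted p = 0.0136, edgeR), where 48.0% of all exons and introns tested were called. This call was lost without Nxf1 replicate 3 (2.09, adjusted p = 0.106) or Control replicate 2 (1.59, 0.0582), with no filter (2.19, 0.290) and with a filter of 20 tags over all libraries (2.60, 0.0582). It held with a term for the lane set (2.18, 0.0232), and within the lanes of replicates 1 and 3 the difference was 1.81 (0.307). With the filter of 20 tags, chosen after seeing the data, ACIN1 exon 6 was called higher in Chtop than in Nxf1 (3.40, adjusted p = 0.0468, edgeR). Exon 6 did not pass the main filter, so the 48.0% is not its background. The share called with the filter of 20 tags is not given here. The other contrasts called neither by edgeR: Alyref against Control (0.543% of all called), Chtop against Control (55.1%), Nxf1 against Control (0.217%), Alyref against Chtop (14.5%) and Alyref against Nxf1 (0.217%). With the replicate block, the called exons and introns fell from 133 to 5 in Alyref against Chtop. Unadjusted p-values under 0.05 numbered 0 in each but the last, where PNN exon 9 gave 1. DESeq2 called 1 of the 2 for Chtop against Control and 0 in the others that it could test, which leaves out Alyref against Control.

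Among ACIN1 exons, some held more Alyref and others more Chtop tags. Exons 14, 15 and 16, of 146, 108 and 108 nt, held 17, 21 and 25 Alyref tags and 2, 7 and 6 Chtop tags, and exon 16 was the densest exon of the gene. Exon 6, of 1263 nt, held 33 Alyref and 62 Chtop tags, and the last exon, of 911 nt, held 63 of each. In CPM per kb, exon 16 stood at 176 in Alyref, 54.7 in Chtop and 30.2 in Nxf1, and exon 6 at 19.8, 48.3 and 5.16. These exons, other than exon 16, were chosen after their values were seen. With the filter of 20 tags, also chosen after seeing the data, they were not called between Alyref and Chtop (edgeR). The log2 differences were 2.35 in exon 14 (adjusted p = 0.192), 1.09 in exon 15 (0.411) and 1.60 in exon 16 (0.275). In exon 6 the difference was -1.33 (adjusted p = 0.310).

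**Figure D4:**
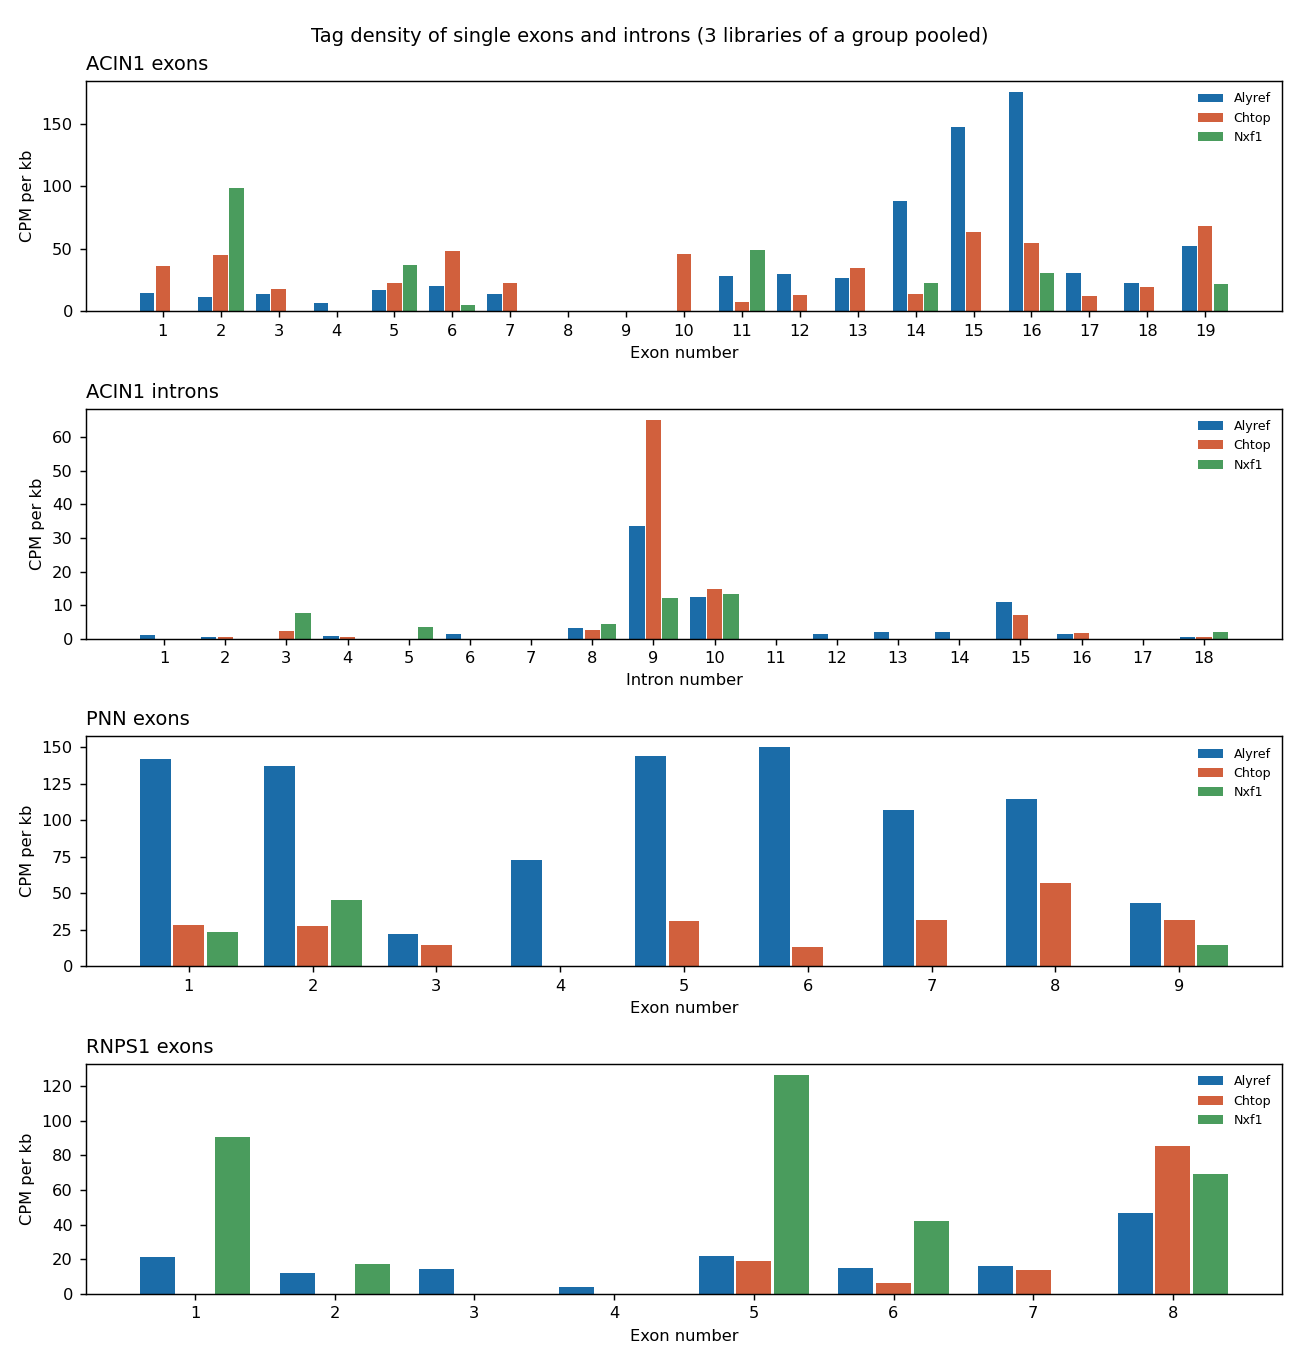
CPM per kb (y axis, linear) of each exon of ACIN1, PNN and RNPS1 and each intron of ACIN1 (x axis, number in the canonical transcript), with the 3 libraries of a factor pooled. Alyref is highest in ACIN1 exons 14 to 16 and in every PNN exon, Chtop in ACIN1 intron 9 and RNPS1 exon 8. Nxf1 bars of short exons rest on 1 to 4 tags each.

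PNN was read along its length in the same way. Each of its 9 exons was tagged, and the densest was exon 1, with 26 Alyref, 4 Chtop, 1 Nxf1 and 0 Control tags on 139 nt. The last exon, of 2718 nt, held 10, 70 and 74 Alyref tags against 10, 64 and 50 in the other exons, and 4, 52 and 32 Chtop tags against 2, 15 and 7. In Nxf1 it held 1, 5 and 6 against 0, 1 and 1, and in Control 2, 4 and 0 against 0, 1 and 0. The last exon took 50.0%, 52.2% and 59.7% of exonic tags in Alyref and 66.7%, 77.6% and 82.1% in Chtop, which did not overlap.

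The ratio of last exon to other exons was tested over 1014 genes, with ACIN1 and PNN among them. For PNN it was lower in Alyref than in Chtop by 1.54 on the log2 scale (log2 difference -1.54, SE 0.46, adjusted p = 0.00244, edgeR). Of all genes 52.1% were called in this contrast, with a median difference of -1.18, so that a shift of this direction was common. Scaled by TMM over the 24 columns, again centred on the bulk of genes, the PNN difference was -0.27 (adjusted p = 0.709). Without replicate 2 or 3 of any factor, and so within the lanes of replicates 1 and 3, PNN had too few tags for this test. The ACIN1 ratio was not called in any of the 6 contrasts, with adjusted p-values of at least 0.482. In the other 5 contrasts 0 of the 2 members were called by edgeR or DESeq2, with 1 unadjusted p under 0.05, that of PNN for Alyref against Nxf1. There 4.04% of all genes were called, and 2.96% for Chtop against Nxf1. Against Control 0% were called for each factor, with 56, 74 and 39 genes at an unadjusted p under 0.05 for Alyref, Chtop and Nxf1 and 0 called by DESeq2.

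In RNPS1, most exonic tags lay in the last exon. Exon 8, of 944 nt and mostly 3′ UTR, held 3, 27 and 28 tags in Alyref, 1, 43 and 38 in Chtop, 0, 15 and 5 in Nxf1, and 0 in Control. The other 7 exons together held 2, 9 and 7, then 1, 1 and 3, then 1, 5 and 3, and in Control 0, 1 and 0. The last exon thus took 76.3% of exonic Alyref tags (58 of 76), 94.3% of Chtop tags (82 of 87) and 69.0% of Nxf1 tags (20 of 29). With the filter of 20 tags, the last exon ratio of RNPS1 too was lower in Alyref than in Chtop (log2 difference -2.24, SE 0.83, adjusted p = 0.0390, edgeR). With that filter exon 8 was called higher in Chtop than in Control, where it had 0 tags (adjusted p = 0.0453, edgeR). Neither RNPS1 feature passed the main filter, which tested other sets of features. There 52.1% of all genes were called in the first contrast and 55.1% of all exons and introns in the second. The shares called with the filter of 20 tags are not given here, so these 2 calls lack a background of their own. A run of 100 nt at chr16:2303253-2303352 held 50 of the factor tags (16 Alyref, 25 Chtop, 9 Nxf1). Of the 30-base words of the RNPS1 exons, 53.8% occur elsewhere in the genome, from 25.7% in exon 7 to 81.6% in exon 4 and 45.0% in exon 8. The deposited tags come from uniquely mapped reads, and how many RNPS1 tags were lost by that was not tested. The densest intron was intron 6, with 62 Alyref, 51 Chtop, 11 Nxf1 and 2 Control tags on 6551 nt, of which the last 3030 nt are exonic in retained-intron isoforms and held 35, 30, 4 and 2.

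**Figure D5:**
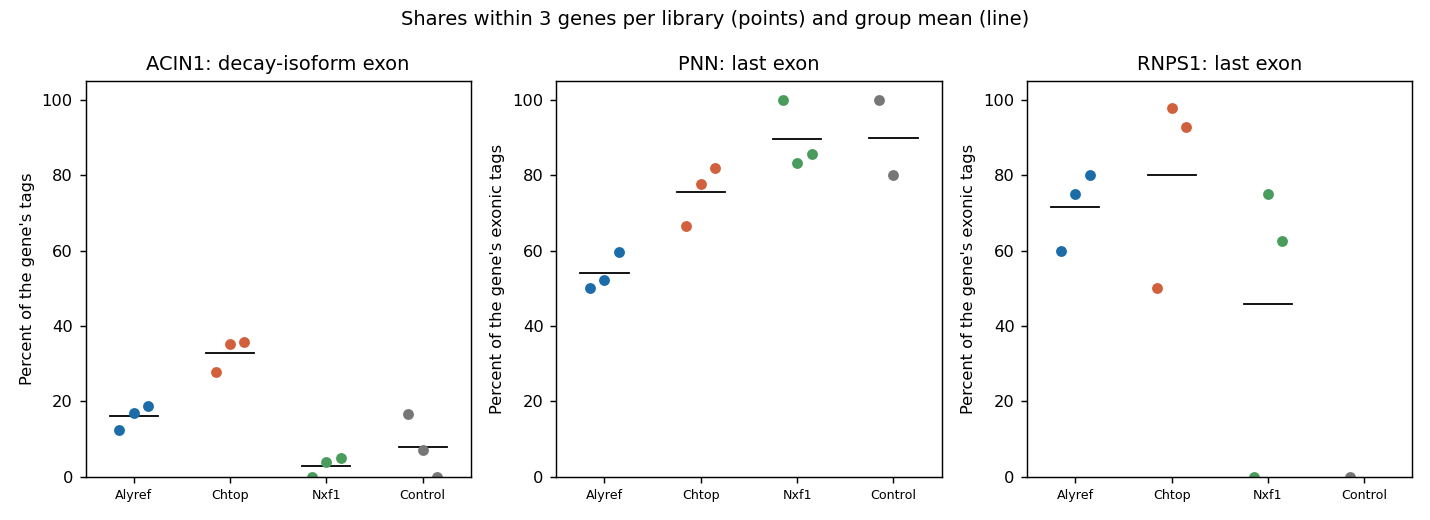
The ACIN1 decay exon as a percent of all tags of the gene, and the last exon of PNN and of RNPS1 as a percent of exonic tags (y axes), per library (points) with the group mean (line). Libraries with no tag in the denominator are left out. Alyref and Chtop libraries do not overlap for ACIN1 (12.5% to 18.8% against 27.8% to 35.9%) or PNN. For RNPS1 they overlap only through Chtop replicate 1, at 50% on 2 exonic tags. Chtop replicates 2 and 3, at 97.7% and 92.7%, lie above every Alyref library, the highest of which stands at 80%. The share of all genes without such overlap is not given here.

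Other members gave fewer tags by part. Of UPF1 exons with at least 20 factor tags, the densest was the last, exon 24, with 29 Alyref, 34 Chtop, 5 Nxf1 and 0 Control tags on 1710 nt, and of its introns with as many, intron 15, with 9, 9, 2 and 0. Its exonic share was 58.0% in Alyref (91 of 157), 69.7% in Chtop (62 of 89) and 50.0% in Nxf1 (11 of 22). In UPF3B, exon 11, the last, held 6 Alyref, 15 Chtop and 1 Nxf1 tags, or 23.1% of exonic Alyref tags (6 of 26) and 15 of the 20 Chtop tags. In EIF4A3 the exonic share was 54.1% in Alyref (20 of 37), 58.3% in Chtop (7 of 12) and 83.3% in Nxf1 (10 of 12). MAGOH, with 42.9% in Alyref (9 of 21), and SAP18, with 46.7% (7 of 15), had no exon or intron with 20 tags. Over the 10 genes, the last exon took 46.2% ± 2.02 of exonic tags in Alyref, 57.2% ± 5.18 in Chtop, 60% ± 2.50 in Nxf1 and 58.9% ± 8.39 in Control (SD, n = 3 each). By library this was 3 of 5, 35 of 56 and 23 of 40 tags in Nxf1 and 2 of 3, 8 of 16 and 3 of 5 in Control. With so few tags, these SDs do not show the counting error. The same share in other genes was not computed.

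The junctions themselves were looked at because the complex sits just upstream of them. The authors reported Alyref enriched in the window used here, which covers only part of the region where they placed the complex. In their average profiles of internal junctions they did not see that pattern with Chtop or Nxf1. What an even spread of tags would give in this window was not computed. In 43 internal junctions between exons of at least 100 nt, tags from -75 to -24 nt of the junction made up 33.2% of tags within 100 nt of it in Alyref (97 of 292, 95% exact interval 27.8 to 38.9). The share was 32.7% in Chtop (36 of 110, 24.1 to 42.3) and 31.8% in Nxf1 (7 of 22, 13.9 to 54.9), and Control had 0 of 6, which allows up to 45.9%. By library it was 35.0%, 32.5% and 33.9% in Alyref and 3 of 4 tags, 29.6% and 32.7% in Chtop. A difference between factors in this window was not detectable at this depth.

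Introns that lie whole inside an exon of another annotated isoform numbered 14 in the 10 genes, and held 2.63 factor tags per kb. The 88 other introns held 6.68, with 396 of their 997 factor tags in ACIN1 intron 9. Sequence that is exonic in decay isoforms and in no isoform classed as protein-coding came to 1651 nt in 5 stretches. Exons of other isoform classes were not set aside. These stretches held 240 factor tags (76 Alyref, 162 Chtop, 2 Nxf1), of which ACIN1 held 239.

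Of 21 further genes of the pathway, 14 were tested in the fit of tags per gene and 2 passed. SRRM2, a splicing coactivator of the SR-related family, was higher in Chtop than in Control by 2.67 (SE 0.56, adjusted p = 0.00438) and than in Nxf1 by 1.54 (SE 0.52, adjusted p = 0.0302), with 1293 Alyref, 2447 Chtop, 137 Nxf1 and 33 Control tags. SMG1, the kinase that phosphorylates UPF1, was higher in Chtop than in Control by 2.87 (SE 0.54, adjusted p = 0.00207) and than in Nxf1 by 1.32 (SE 0.44, adjusted p = 0.0291), with 973, 1207, 109 and 13 tags. Of all genes, 13.5% were called in the first of these contrasts and 23.8% in the second, and of the pathway genes tested 2 of 14 rose and 0 fell in each, and in the other 4 contrasts 0 passed in either direction.

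Over the 12 libraries, the level of ACIN1 ran most like those of GPAT4 (Pearson r = 0.974 of log2 CPM), TBKBP1 (0.965) and AFDN (0.960). PNN ran most like LENG8 (0.95), CNOT10 (0.945) and RBM5 (0.940). These are the highest values over the 3864 genes tested and are given as a description, since shallow libraries and total depth are shared by every gene.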

How the data were processed

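The 12 iCLIP libraries, 3 for each tagged factor and 3 for the FLAG Control, were sequenced in 32 lane runs. The authors removed phiX reads, took molecular identifiers from the reads, trimmed and demultiplexed them, kept uniquely mapped reads, merged lanes and removed PCR duplicates. The deposited value is the count of tags at each crosslinked base, with no normalization. The submitters' processing notes name Bowtie 1.1.2, UMI-tools 0.5.3, STAR 2.4.2a and build hg19.

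Tags were assigned by strand to GENCODE genes lifted to GRCh37, with exons and introns from the canonical transcript, and a tag in several genes counted for each. Of all tags, 59.0% to 83.4% per library lay in 1 gene and 5.97% to 8.32% in several. Tags per gene, the exon to intron and last to other exon ratios within a library, and tags per exon or intron were tested over all features with the edgeR 4.0.16 quasi-likelihood test in R 4.3.3, with TMM scaling (library totals for the ratios), filterByExpr, Benjamini-Hochberg adjustment at 0.05 and 6 contrasts. All 12 libraries entered each fit. DESeq2 1.42.0, other scalings, no filter, tagged positions, all isoforms and leaving out each library were tried. A filter of 20 tags over all libraries, a term for the lane set and a fit of replicates 1 and 3 alone were added after seeing the data. Replicate numbers share sequencing lanes across groups by the sample titles, and a fit with the replicate number as a block was run. Deviations of same-numbered libraries correlated at -0.170 to 0.326 over 18 pairs and those of other pairs at -0.338 to 0.271 over 36. The fits were tested on simulated data. Pooled shares and ratios carry exact 95% intervals (scipy 1.17.1), and a count of 0 was read as up to 3 counts.

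The 10 genes were named whatever their values, with the exon and the intron of most factor tags per kb (at least 20 tags), those past the test, pathway genes past the test, and the 3 genes most correlated with ACIN1 and PNN. Other exons and all bases were chosen after their values were seen. The 10 genes and the lists were chosen with earlier results of these data known.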

Additional observations from a re-analysis of the deposited data

How the results depend on the processing

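Of 483 counts and shares recomputed under alternatives, 416 kept their value within the allowed margin. Most of the 483 were counts of called members that were 0 in the main fit, with few members tested. Some settings left out a library outside the contrast. The number that kept their value therefore says little about how robust the calls are. Of 311 single differences, 276 kept their direction and their side of the threshold, 22 lost it, 8 gained it and 5 reversed. In tags per gene, Chtop against Nxf1 had 0 members called with total tags as the only scaling and 0 under DESeq2, and Alyref against Nxf1 had 0 under DESeq2. Alyref against Chtop had 1 (PNN) when tags in more than 1 gene were left out and 1 with positions counted. Leaving out 1 library gave 0 to 1 in Chtop against Control, Alyref against Chtop, Alyref against Nxf1 and Chtop against Nxf1. In the exon to intron ratio, TMM over the 24 columns gave 1 in Alyref against Chtop and 0 in Chtop against Nxf1, DESeq2 gave 1 in Alyref and 1 in Chtop against Control, no filter gave 0 in Chtop against Nxf1, and leaving out 1 library gave 0 to 1 there. The PNN ratio to Control ran from -0.91 to 4.85 (log2) for Alyref and from -1.93 to 3.82 for Chtop when 1 library was left out, the low ends being those without Control replicate 2. In the last exon ratio, Alyref against Chtop had 0 with TMM, 2 with the filter of 20 tags and 0 to 2 with 1 library left out. In tags per exon or intron, Chtop against Control had 1 with DESeq2 size factors, 1 under DESeq2, 1 with the filter of 20 tags and 0 to 2 with 1 library left out, Alyref against Control 0 to 1, and Chtop against Nxf1 0 with no filter and 0 to 1 with 1 library left out. Fits without a deep library tested fewer members, and those that tested none gave no value. Among pathway genes, SMG1 was also called in Alyref against Control with the filter of 20 tags (adjusted p = 0.00474, edgeR). Shares of all features called with that filter are not given here.

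The exon share became 78.0% in Alyref, 82.2% in Chtop, 74.6% in Nxf1 and 68.7% in Control with exons of all isoforms, and 70.0%, 77.8%, 61.1% and 57.4% without ACIN1. Only 1 junction had exons of at least 200 nt, with no tags in Nxf1 or Control. The window held 3 of 7 tags in Alyref (42.9%, 95% exact interval 9.90 to 81.6) and 3 of 5 in Chtop (60%, 14.7 to 94.7).

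A replicate number marks the same sequencing lanes in all groups, with replicate 2 on other HiSeq lanes than replicates 1 and 3. With the replicate block, 1 member was called in Alyref against Nxf1 and 1 in Chtop against Nxf1 in tags per gene, as without it, and the block changed no other member call, while the genes called in Alyref against Control went from 1 to 82 and the exons and introns called in Alyref against Chtop from 133 to 5. A term for the lane set changed no member call. Within the lanes of replicates 1 and 3, Alyref against Nxf1 had 0 members called in tags per gene, and Chtop against Nxf1 had 0 in tags per gene, in the exon to intron ratio and in tags per exon or intron, with 1 to 2 members tested in each of these fits. The last exon ratio gave no value there, and the PNN exon to intron ratio reversed against Control, to -0.76 (log2) with Alyref, -2.37 with Chtop and -0.075 with Nxf1. Both lane set fits were added after seeing the data.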
